A study of Mus musculus with 4 samples.

Results

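The splicing factor genes described here are those whose symbols start with Snrp, Sf3a, Sf3b, Prpf, Srsf or Hnrnp. The array table held 117 probes of 60 such genes, of 22534 probes in all and of 12347 genes with a probe of a single name. Another probe carried the name Hnrnpa0 together with a further gene name and was left out. The siSelT-1 group was NIH 3T3 cells, a mouse fibroblast line, that stably carried the plasmid pU6-m3 with a target sequence at nucleotides 205 to 224 of the Selt mRNA (now Selenot, for selenoprotein T). The siSelT-5 group carried the same plasmid with a target at nucleotides 971 to 989, and the control cells carried the empty pU6-m3 vector. All cells were kept with 150 µg/ml hygromycin B, 10% serum and 100 nM sodium selenite. Each construct was measured on 2 two-colour arrays, with knockdown RNA in Cy5 and vector RNA in Cy3, from different cultures taken at different times.

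Each value is the log ratio of one array, here read as log2 of knockdown over vector, so that a positive value is a higher level in knockdown cells. The base is not stated, and the direction was taken from titles and dye labels. The arrays give no signal level per channel, so ratios of different genes are compared here and levels are not. The targeted gene had no named probe, and the knockdown itself was not analysed here. All 14 listed fibroblast markers had a probe and 10 had values on all 4 arrays. Of the listed markers of other cells, 0 of 3 epithelial, 1 of 3 macrophage and 2 of 2 endothelial genes with a probe had values on all 4 arrays. In RNA of whole cultures, fewer cells expressing a gene and less RNA per cell cannot be told apart.

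Splicing removes introns from pre-mRNA in the spliceosome, which is built from small nuclear ribonucleoproteins (snRNPs). Each of the U1, U2, U4 and U5 snRNPs holds a ring of Sm proteins around its RNA, encoded by the Snrp genes, with particle-specific proteins added. U1 recognises the 5′ splice site, and U2, with the complexes SF3A and SF3B, recognises the branch point. The Prpf genes encode proteins of the U4/U6 and U5 particles and of later steps. SR proteins (Srsf genes) mostly promote the use of nearby splice sites, and hnRNP proteins (Hnrnp genes) bind nascent RNA and often oppose it.

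The 117 probes fell into 4 classes by where they had values. Values on all 4 arrays were held by 77 probes of 48 genes, or 65.8% of the probes, beside 34.5% of all 18129 probes of a single name. A further 22 probes of 19 genes had values on both siSelT-5 arrays and on no siSelT-1 array, 9 probes had a value on 1 siSelT-5 array only, and 9 had other partial patterns. The share with all 4 values was lowest among Prpf probes, with 6 of 24, and among the larger groups it was highest for Hnrnp probes, with 41 of 49. The names Srsf7, Srsf12 and Hnrnph3 were not analysed here. For 12 of the 60 genes no probe had 4 values, and the comparisons of the constructs therefore cover 48 genes, each as the mean of its probes with 4 values.

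On the probes shared by all arrays the median ratio lay above 0, at 0.19 and 0.093 with siSelT-1 and 0.43 and 0.36 with siSelT-5, or 0.14 and 0.39 as means of each construct. Calls are therefore given as deposited and after centring each array on that median. Pearson's r across the 48 genes, given as a description, was 0.836 for the pair of siSelT-1 arrays and 0.704 for the siSelT-5 pair. Replicates had a pooled SD of 0.16 with siSelT-1 and 0.36 with siSelT-5.

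The mean of both constructs against vector asks whether a splicing factor gene differed in knockdown cells when averaged over the constructs. A change with a single construct can pass it: Hnrnpu rose with means of -0.049 with siSelT-1 and 1.05 with siSelT-5. Both U1-specific genes that the name rule covers (Snrpa and Snrpc) and 6 of the 7 canonical Sm ring genes rose. The Hnrnp genes divided and no Prpf gene rose. Of the 48 genes, 21 rose and 5 fell (limma, Benjamini-Hochberg adjusted p under 0.05 over 4754 genes), while 45.7% of all genes rose and 8.04% fell. The median log2 ratio of the 48 genes was 0.15 and that of all genes 0.25. After centring, 7 of the 48 rose and 14 fell, beside 20.5% and 21.9% of all genes, and the medians were -0.12 and -0.018. Both shares of the 48 genes as deposited lie near those of all genes, so the description below is of single genes and name groups. All 4 arrays were above 0 for 18 of the 48 genes, beside 44.9% of all genes, and below 0 for 6, beside 8.6%. Without siSelT-1 replicate 1, 0 of the 48 and 0 of all 4754 genes passed (1846 genes at an unadjusted p under 0.05). Without siSelT-1 replicate 2, fewer rose and fewer fell than in the main fit, among the 48 and among all genes.

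**Figure D1:**
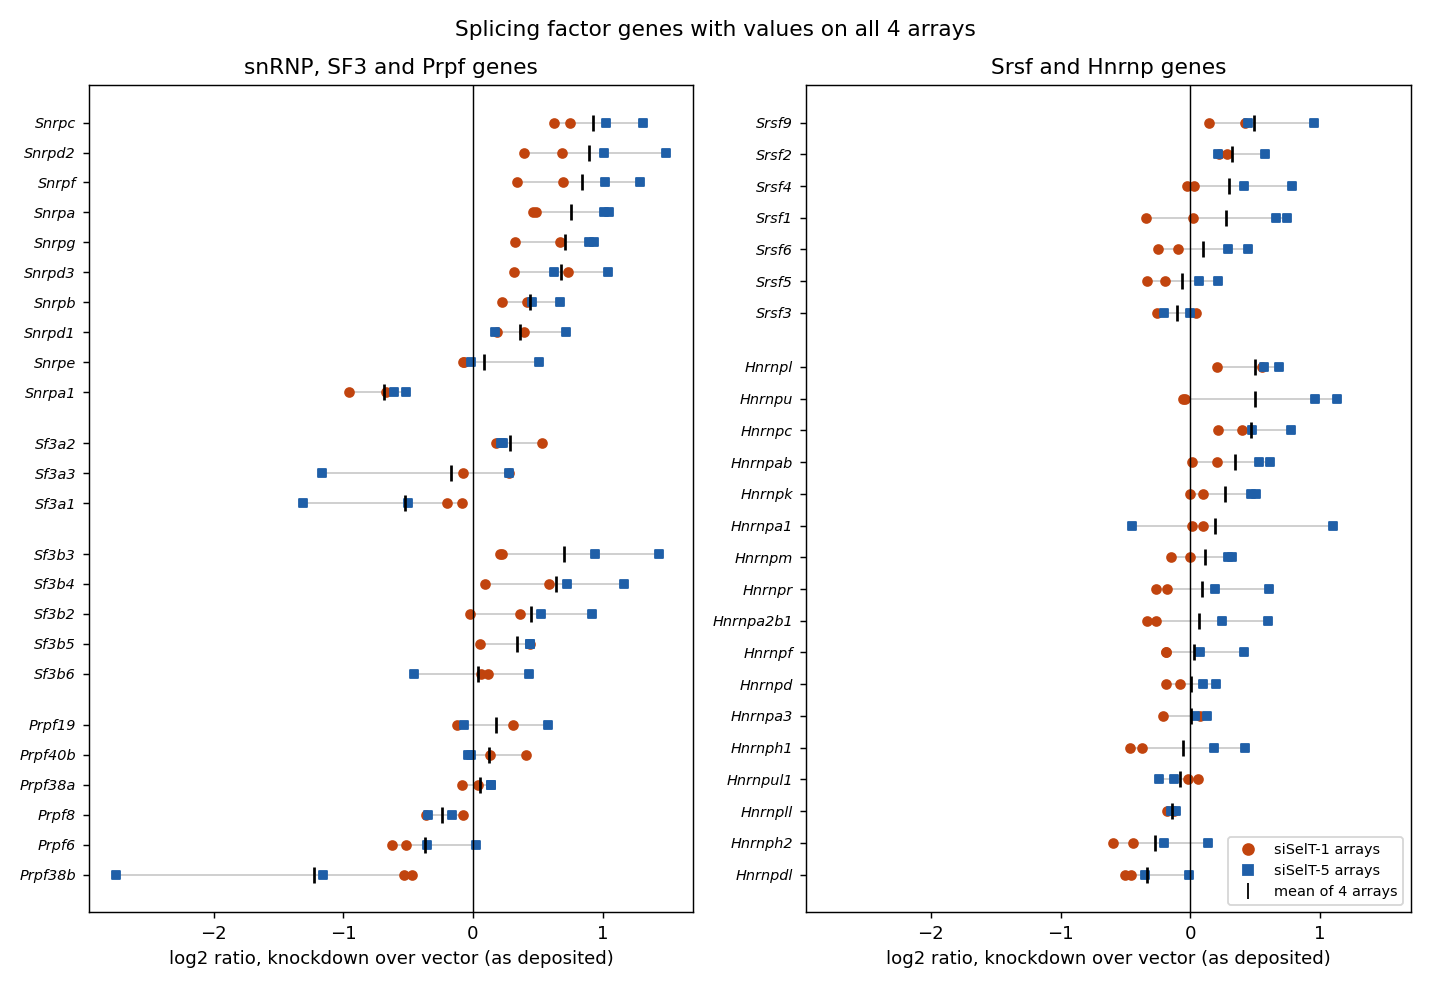
Log2 ratio of knockdown over vector (x axis, as deposited) for the 48 splicing factor genes with values on all 4 arrays, ordered within each name group by the mean of the 4 arrays (black tick). Circles are the 2 siSelT-1 arrays and squares the 2 siSelT-5 arrays; Snrpc stands highest, at a mean of 0.93, and Prpf38b lowest, at -1.22.

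Among the Snrp genes, 8 of 10 rose, 1 fell and the median was 0.69. After centring, 6 rose and 1 fell, with a median of 0.43. Snrpc (Entrez Gene 20630), which encodes a protein specific to the U1 particle, stood at 0.75 and 0.63 on the siSelT-1 arrays and at 1.31 and 1.03 on the siSelT-5 arrays. Its mean of 0.93 ± 0.30 (SD, n = 4), or 1.90-fold, was the highest of the 48 genes, with limma's adjusted p at 0.00162. Snrpa (53607), which encodes the other U1-specific protein of the set, had values of 0.47 and 0.49 on the siSelT-1 arrays, against 1.01 and 1.05 on the siSelT-5 arrays. Its 3 probes had means of 0.65 to 0.83, all above 0, and it rose to 0.75 ± 0.32 (SD, n = 4; limma, adjusted p 0.00176). For both U1 genes the 2 siSelT-1 values lay below the 2 siSelT-5 values, and all 4 lay above 0.

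All 7 canonical genes of the Sm ring were measured on 4 arrays, and 6 rose, 4 of them after centring too. Snrpd2 (107686) had 0.69 and 0.40 on the siSelT-1 arrays, against 1.49 and 1.01 on the siSelT-5 arrays. It averaged 0.90 ± 0.47 (SD, n = 4; 1.86-fold; limma, adjusted p 0.00252). Snrpf had 0.70 and 0.34 with siSelT-1 and 1.29 and 1.02 with siSelT-5. Every one of these values was above 0, and the constructs did not overlap in either gene. Snrpg followed with 0.67 and 0.32 on the siSelT-1 arrays, against 0.93 and 0.90 on the siSelT-5 arrays. Snrpd3, at 0.74 and 0.32 with siSelT-1 and 1.04 and 0.63 with siSelT-5, overlapped between the constructs. Snrpb (0.44) and Snrpd1 (0.37) rose as deposited and did not pass after centring. Of the 2 Snrpb probes with values on 4 arrays, 1 averaged 0.77 and the other 0.12, and only the first passed on its own. A further Snrpb probe had 0.19 on siSelT-1 replicate 2 and -0.53 and 0.55 on the siSelT-5 arrays. With that probe included, Snrpb stood at 0.38 with siSelT-5 and did not pass there (limma, adjusted p 0.0654). Snrpe was the exception in the ring, with -0.075 and -0.068 on the siSelT-1 arrays, against -0.015 and 0.51 on the siSelT-5 arrays, and it did not pass (limma, adjusted p 0.522).

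Snrpa1 (68981), which encodes a protein specific to the U2 particle, was the only Snrp gene that fell. It stood at -0.67 and -0.95 on the siSelT-1 arrays and at -0.60 and -0.52 on the siSelT-5 arrays, all 4 below 0. The mean was -0.69 ± 0.19 (SD, n = 4), or 0.621-fold, and passed as deposited and centred (limma, adjusted p 0.00252 as deposited). This rests on 1 probe, and a second probe of Snrpa1, with siSelT-5 values only, stood at 0.55 and 0.92. Snrpb2, whose product partners that of Snrpa1 in the U2 particle, had siSelT-5 values only, and these were -1.69 and -0.88 on the probe with both.

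The SF3A and SF3B genes, whose products hold U2 at the branch point, did not move as one. SF3B had 4 of 5 genes that rose, with a median of 0.45, of which 1 rose after centring. Sf3b3 (101943) had 0.22 and 0.21 on the siSelT-1 arrays, against 0.94 and 1.44 on the siSelT-5 arrays, for a mean of 0.70 ± 0.60 (SD, n = 4; limma, adjusted p 0.00392). Sf3b4 had 0.096 and 0.59 with siSelT-1 and 0.73 and 1.16 with siSelT-5. As deposited, both genes were higher on each siSelT-5 array than on either siSelT-1 array, an order that 52.6% of all genes had. Sf3b4 (0.64), Sf3b2 (0.45) and Sf3b5 (0.34) rose as deposited alone, and Sf3b3 also rose after centring. Sf3b6, which contacts the branch point adenosine, had 0.065 and 0.12 with siSelT-1 and 0.44 and -0.45 with siSelT-5 and did not pass. Among the 3 SF3A genes, Sf3a2 rose to 0.29 as deposited and not after centring. Sf3a1 fell on both scales: it stood at -0.20 and -0.081 on the siSelT-1 arrays and at -0.50 and -1.31 on the siSelT-5 arrays (mean -0.52 ± 0.55, SD, n = 4; limma, adjusted p 0.0266). Sf3a3 had 0.28 and -0.077 with siSelT-1 and 0.28 and -1.16 with siSelT-5, a spread that covers both signs.

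Of the 6 Prpf genes with 4 values, 0 rose and 2 fell, and 3 fell after centring. Prpf38b (66921), a relative of the tri-snRNP gene Prpf38a, had the lowest value. It stood at -0.53 and -0.47 on the siSelT-1 arrays and at -2.75 and -1.15 on the siSelT-5 arrays. All 4 values were below 0, and the gap between the siSelT-5 arrays was wider than that between the constructs' nearest values. Its siSelT-5 mean of -1.95 was the lowest of all 4754 genes, and its siSelT-1 mean of -0.50 did not pass (limma, adjusted p 0.364). Prpf6, a U5 protein that bridges to U4/U6, fell: it had -0.52 and -0.63 on the siSelT-1 arrays, against 0.026 and -0.36 on the siSelT-5 arrays (mean -0.37; limma, adjusted p 0.0218). Prpf8, the large scaffold of U5, averaged -0.23 ± 0.14 (SD, n = 4) with all 4 values below 0. It passed as lower after centring only. The ubiquitin ligase gene Prpf19 had 0.31 and -0.12 with siSelT-1 and 0.58 and -0.072 with siSelT-5. Prpf40b stood at 0.13 and 0.41 on the siSelT-1 arrays and at -0.011 and -0.039 on the siSelT-5 arrays. Prpf38a averaged 0.058 on its only probe with 4 values. Neither gene passed. The other Prpf38a probes, 2 with partial patterns and 1 with siSelT-5 values only, were below 0 wherever they had a value.

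Among the SR protein genes, 3 of 7 rose and 0 fell, with a median of 0.27, while after centring 0 rose and 2 fell (Srsf3 and Srsf5). Srsf9 had 0.42 and 0.15 on the siSelT-1 arrays, against 0.95 and 0.45 on the siSelT-5 arrays and averaged 0.49. Srsf2 (mean 0.32) and Srsf4 (mean 0.30) also rose. Srsf4 was near 0 with siSelT-1 (-0.028 and 0.029) and above it with siSelT-5 (0.42 and 0.79). Srsf1, the founding SR protein, had 0.024 and -0.34 with siSelT-1 and 0.75 and 0.66 with siSelT-5, and its mean of both constructs did not pass (limma, adjusted p 0.0527).

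The 17 Hnrnp genes formed the largest group and had a median of 0.065. As deposited 5 rose (Hnrnpl, Hnrnpu, Hnrnpc, Hnrnpab and Hnrnpk) and 1 fell (Hnrnpdl). After centring 0 rose and 7 fell, namely Hnrnpa3, Hnrnpd, Hnrnpdl, Hnrnph1, Hnrnph2, Hnrnpll and Hnrnpul1. The direction of Hnrnpa3 and Hnrnpd turned with the centring, since their means were 0.0076 and 0.0088 as deposited and -0.26 for each gene after it. Hnrnpl, a regulator of exon inclusion, had 0.55 and 0.21 on the siSelT-1 arrays, against 0.57 and 0.69 on the siSelT-5 arrays. Hnrnpc, a core protein that coats nascent RNA, had 0.40 and 0.22 with siSelT-1 and 0.78 and 0.48 with siSelT-5. All 4 values of both genes were above 0. Hnrnpdl, a relative of Hnrnpd, stood at -0.50 and -0.46 on the siSelT-1 arrays and at -0.35 and -0.0055 on the siSelT-5 arrays, with a mean of -0.33 ± 0.22 (SD, n = 4; limma, adjusted p 0.0272).

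Promoter sequences are shown for Snrpc and Snrpd2, which stood highest, and for Snrpa1 and Prpf38b, which stood lowest among those that fell. Each runs from 250 bases before to 50 bases after the annotated gene start, 5′ to 3′ on the strand of the gene, and comes from RefSeq on GRCm38.p6: chr17:27839837-27840136 (plus strand) for Snrpc, chr7:19149588-19149887 (plus) for Snrpd2, chr7:66060086-66060385 (plus) for Snrpa1 and chr3:108911680-108911979 (minus) for Prpf38b. Capitals mark CGGAAG, the core of sites of ETS family factors, on either strand, so that a match on the other strand reads CTTCCG.
Snrpc: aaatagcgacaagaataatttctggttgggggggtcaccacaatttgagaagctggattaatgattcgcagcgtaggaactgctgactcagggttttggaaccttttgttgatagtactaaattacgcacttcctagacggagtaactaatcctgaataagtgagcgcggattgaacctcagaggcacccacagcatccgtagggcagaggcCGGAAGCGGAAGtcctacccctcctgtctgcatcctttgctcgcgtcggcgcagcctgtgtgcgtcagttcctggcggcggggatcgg
Snrpd2: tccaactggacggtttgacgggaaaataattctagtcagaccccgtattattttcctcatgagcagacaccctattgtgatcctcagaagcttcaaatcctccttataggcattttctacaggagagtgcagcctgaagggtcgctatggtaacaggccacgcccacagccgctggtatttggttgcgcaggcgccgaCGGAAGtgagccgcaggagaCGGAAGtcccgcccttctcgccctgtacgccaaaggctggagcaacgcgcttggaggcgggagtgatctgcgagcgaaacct
Snrpa1: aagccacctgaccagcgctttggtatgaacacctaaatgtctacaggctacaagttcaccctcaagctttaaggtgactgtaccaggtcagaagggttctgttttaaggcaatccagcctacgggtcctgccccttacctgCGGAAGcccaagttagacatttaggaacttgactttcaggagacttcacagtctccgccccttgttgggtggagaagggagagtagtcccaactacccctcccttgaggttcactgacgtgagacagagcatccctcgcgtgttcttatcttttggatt
Prpf38b: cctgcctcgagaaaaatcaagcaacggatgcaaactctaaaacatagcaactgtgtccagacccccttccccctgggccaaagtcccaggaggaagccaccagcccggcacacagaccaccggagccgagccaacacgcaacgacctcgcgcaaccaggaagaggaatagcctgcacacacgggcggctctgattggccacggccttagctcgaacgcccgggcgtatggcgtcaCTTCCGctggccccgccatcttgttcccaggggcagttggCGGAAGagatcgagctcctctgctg
Snrpc, Snrpd2 and Prpf38b held 2 matches each and Snrpa1 held 1. In Snrpc the matches abut, and in Prpf38b one lies before and one after the gene start. RefSeq promoters were at hand for 43 of the 48 genes (not for Hnrnpll, Sf3b4, Sf3b5, Snrpb and Snrpd1). CGGAAG was present in 53.5% of the 43, in 35.8% of the promoters of the 3930 tested genes with one, and in 17.2% of all 27025 promoters. It was held by 10 of the 17 promoters of genes that rose and by 4 of the 5 of genes that fell. The NF-Y motif CCAAT, searched on both strands like the others, was present in 24 of the 43 promoters (55.8%) and in 39.2% of those of tested genes. The Sp family motif GGGCGG was present in 28 (65.1%) and in 68.5% of those of tested genes. The TATA box letters TATAAA were present in 6 and in 7.07% of those of tested genes. A match describes letters in this window, and binding was not measured.

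For siSelT-1 alone, 2 of the 48 genes rose and 2 fell, beside 10.3% and 3.37% of all genes (limma, adjusted p under 0.05). The genes that rose were Snrpc (0.69, 1.61-fold) and Snrpa (0.48), and those that fell were Snrpa1 (-0.81, 0.569-fold) and Prpf6 (-0.57). Of these, Snrpa lost its call after centring and Hnrnph1 and Hnrnph2 were then called lower, at -0.56 and -0.66. After centring 1 of the 48 rose and 4 fell with siSelT-1, beside 3.83% and 5.07% of all genes. The 10 Snrp genes had a siSelT-1 median of 0.49, the 5 Sf3b genes 0.21 and the 17 Hnrnp genes -0.076. Leaving out siSelT-1 replicate 1 or replicate 2 left 0 of the 48 and 0 of all genes past the threshold in limma (390 and 585 of all genes at an unadjusted p under 0.05). Leaving out either siSelT-5 array, whose spread is wider, gave more that rose and more that fell, among the 48 and among all genes.

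For siSelT-5 alone, 22 of the 48 genes rose and 3 fell, beside 47.6% and 6.29% of all genes. Snrpd2 rose most, to 1.25 (2.38-fold), followed by Sf3b3 at 1.19, Snrpc at 1.17, Snrpf at 1.16 and Hnrnpu at 1.05. The genes that fell were Prpf38b (-1.95, 0.258-fold), Sf3a1 (-0.91) and Snrpa1 (-0.56). Genes that rose with siSelT-5 numbered 7 of 10 Snrp, 4 of 5 Sf3b, 5 of 7 Srsf and 6 of 17 Hnrnp genes, against 0 of 6 Prpf and 0 of 3 Sf3a genes. After centring 7 rose (Snrpa, Snrpc, Snrpd2, Snrpf, Snrpg, Sf3b3 and Hnrnpu) and 10 fell, beside 19.2% and 20% of all genes. With siSelT-5 replicate 1 left out more genes fell, and with either siSelT-1 array left out fewer rose, among the 48 and among all genes.

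**Figure D2:**
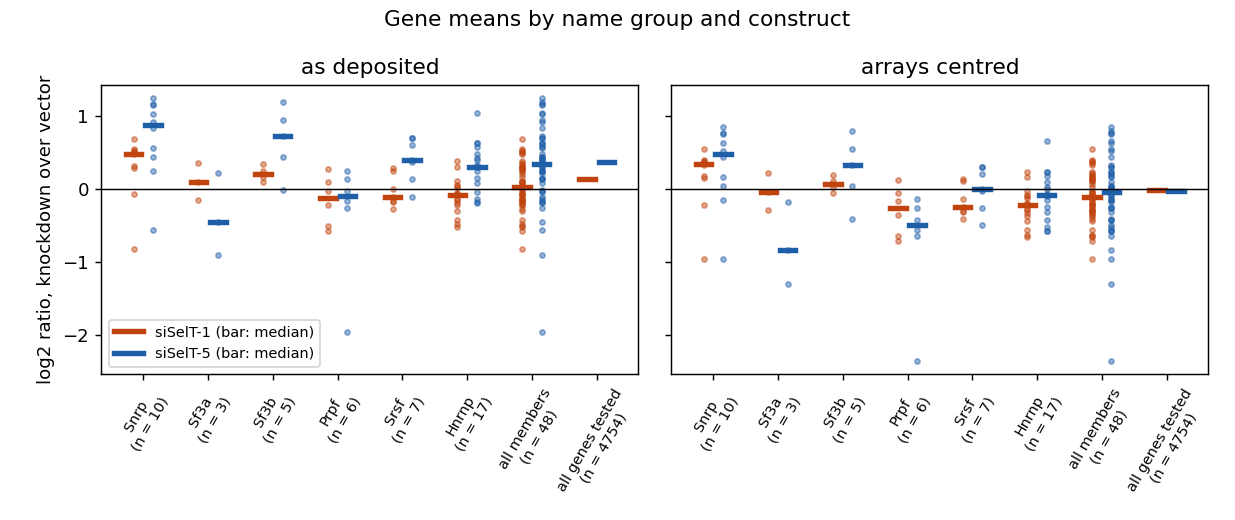
Construct means of the 48 splicing factor genes (points, log2 ratio of knockdown over vector) by name group, with the group median as a bar and that of all 4754 genes at the right, as deposited (left) and with arrays centred (right). The Snrp median is above that of all genes for both constructs on both scales, at 0.49 with siSelT-1 and 0.88 with siSelT-5 as deposited, while the Prpf median is below it.

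The difference siSelT-1 minus siSelT-5 asks whether the constructs, which target different stretches of the same mRNA, differ for a gene, and a dye effect shared by all arrays cancels in it. In limma 0 of the 48 genes passed (18 at an unadjusted p under 0.05), and 0.0631% of all genes did. After centring the count was again 0 of 48, with 9 at an unadjusted p under 0.05. The median difference was -0.32 for the 48 genes and -0.26 for all genes as deposited, and -0.066 and -0.0086 after centring. Both siSelT-1 values lay below both siSelT-5 values in 31 genes (64.6%), beside 52.6% of all genes. The opposite order held for 4 genes, beside 11.9% of all genes. After centring, siSelT-1 lay below siSelT-5 in 18 genes, beside 32% of all genes, and above it in 8, beside 28.3%. The call depends on single arrays: with either siSelT-5 array left out, genes passed in both directions, among the 48 and among all genes. In those fits the lone siSelT-5 array is assumed to vary like the siSelT-1 arrays.

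Hnrnpu (51810), a scaffold-attachment protein that binds RNA, had the lowest difference. It stood at -0.057 and -0.041 on the siSelT-1 arrays and at 0.96 and 1.13 on the siSelT-5 arrays, so that the constructs did not overlap. The difference was -1.10 ± 0.16 (SE; limma, adjusted p 0.0543), or -0.84 after centring. Sf3b3 (-0.98 ± 0.21, SE) and Srsf1 (-0.86 ± 0.19, SE) came next, each at an adjusted p of 0.0557 in limma. With array weights Hnrnpu and Sf3b3 passed as lower with siSelT-1, as did 237 of all 4754 genes. The highest difference was that of Prpf38b, at 1.46 ± 0.50 (SE), followed by Sf3a1 at 0.76 and Sf3a3 at 0.54, while Sf3a2 had 0.13. Of the 17 Hnrnp genes, 16 had a lower mean with siSelT-1 than with siSelT-5, as had 3436 of all 4754 genes, and after centring 13 had, as had 2426 of all genes. Both siSelT-1 values were below 0 and both siSelT-5 values above it in 9 of the 48 genes (7 of them Hnrnp genes), beside 9.51% of all genes, and the reverse held for Prpf40b alone, beside 3.07%. After centring 3 genes had the first pattern, beside 6.73%. The Hnrnp group's median difference was -0.38 as deposited and -0.13 after centring.

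The 22 probes with values on the siSelT-5 arrays alone formed a class of lower ratios. Their median was -0.67, and that of the 77 splicing factor probes with 4 values was 0.31 on the same 2 arrays. The corresponding medians of all probes of a single name were -0.61 (5954 probes) and 0.38 (6251 probes), so the gap between the classes was not restricted to splicing factors. Probes are not replicates, and the class was set by which arrays had values, so no test of this gap was made. Of the 22 probes, 0 rose and 8 fell against vector (limma on the 2 siSelT-5 arrays, adjusted p under 0.05 over 5954 probes), beside 1.06% and 37.4% of the class. After centring on the class, 1 rose and 1 fell, beside 5.9% and 5.63%.

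**Figure D3:**
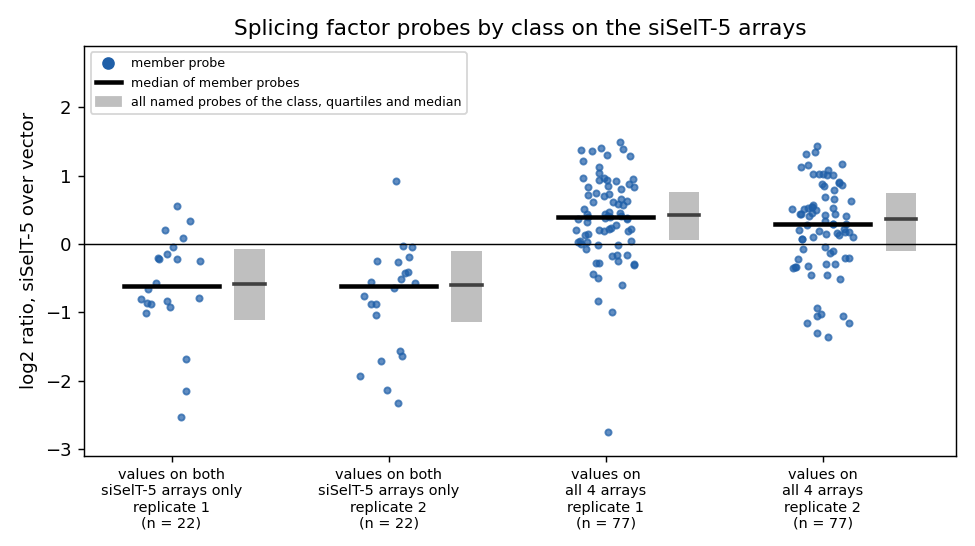
Log2 ratio of siSelT-5 over vector (y axis) for splicing factor probes on each siSelT-5 array, with probes that have values on both siSelT-5 arrays only at the left and probes with values on all 4 arrays at the right. Black bars are medians of the splicing factor probes, and grey boxes show the quartiles and median of all probes of a single name in that class; the class medians lie near -0.6 at the left and above 0 at the right.

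Prpf39, whose yeast relative belongs to the U1 particle, stood lowest in this class, with -2.16 and -1.71. Its mean of -1.93 ± 0.31 (SD, n = 2) passed as deposited and after centring (limma, adjusted p 9.6e-04 as deposited). The other genes with a probe that fell were Srsf1 (-2.54 and -0.88), Prpf3 (-0.86 and -2.13), Prpf31 (-0.92 and -1.93), Snrpb2 (-1.69 and -0.88), Srsf11 (-0.21 and -2.34), Srsf3 (-0.80 and -1.57) and Hnrnpa3 (-1.02 and -1.04), with both arrays below 0 in each. Prpf3 and Prpf31 encode proteins of the U4/U6 particle, and Srsf11 an SR-related protein. For Srsf11 the 2 arrays differed by more than its mean of -1.28. Snrpn, the Sm ring gene known for its expression in brain, had -0.21 and -1.64 and did not pass. At the other end, Snrpa1 (0.55 and 0.92) was the only probe above 0 on both arrays. It did not pass as deposited (limma, unadjusted p 0.0297, adjusted p 0.0697) and passed as higher after centring. Hnrnpr (0.34 and -0.043), Prpf40b (0.20 and -0.27), Srsf10 (0.094 and -0.20), the kinase gene Prpf4b (-0.048 and -0.58) and 1 of 2 Srsf3 probes (-0.25 and -0.41) came next, and none of these passed. Sf3b1, the largest SF3B subunit, had its values of -0.14 and -0.55 in this class only.

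Because 8 genes had probes of both classes, the classes could be compared within a gene. In 12 of 13 pairs the siSelT-5-only probe was lower than the 4-array probe of its gene on the siSelT-5 arrays, with a median difference of -0.67. Over all genes the siSelT-5-only probe was lower in 81.6% of 1116 pairs, with a median of -0.71. The widest gap was in Srsf1, at -1.71 for the siSelT-5-only probe and 0.70 for the 4-array probe, both means of the same 2 arrays. Snrpg had -0.41 and 0.92, Prpf38a -0.70 and 0.14, and Prpf40b -0.035 and -0.025 for the siSelT-5-only and the 4-array probe. Hnrnpa3 had -0.72 and 0.083, Srsf3 -0.76 and -0.10, and Hnrnpr 0.15 and 0.40 as means over the probes of each class. Snrpa1 was the 1 pair in the other direction, at 0.74 for the siSelT-5-only probe and -0.56 for the 4-array probe. Once each class was centred on its own median, the siSelT-5-only probe was lower in 4 of 13 pairs and the median difference was 0.34, beside 36.4% and 0.30 over all genes. As deposited, which probe of a gene is read sets the sign for Srsf1, Snrpg, Snrpa1, Prpf38a and Hnrnpa3 on these arrays. With each class centred, the siSelT-5-only and the 4-array probe still had opposite signs in Srsf1 (-1.09 and 0.31) and Snrpa1 (1.35 and -0.95). They had the same sign in Snrpg (0.21 and 0.52) and Prpf38a (-0.081 and -0.25). For Hnrnpa3 the siSelT-5-only probes then stood at 0.205 and -0.41, and the mean of the 4-array probes at -0.31. Centring also parted signs that had been the same, in Prpf40b (0.58 and -0.42) and for 1 of 2 Srsf3 probes (0.29, beside -0.49). Of the 13 pairs, 7 had the same sign as deposited and 6 with each class centred, beside 43.3% and 50.6% over all genes. Many of these genes have close relatives or pseudogenes, and cross-hybridisation was not tested.

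**Figure D4:**
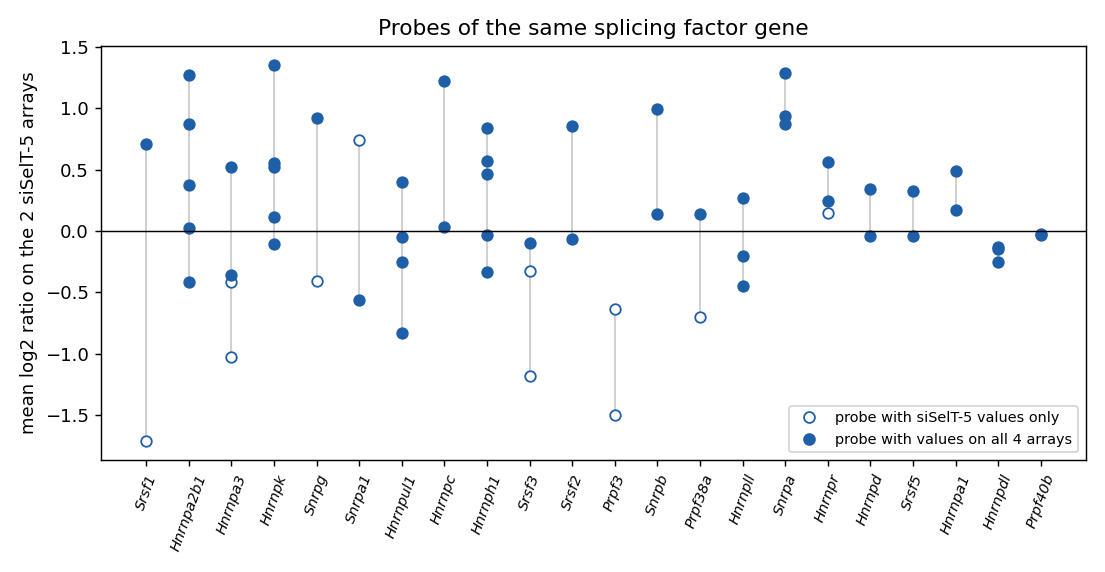
Mean log2 ratio of siSelT-5 over vector on the 2 siSelT-5 arrays (y axis) for each probe of the splicing factor genes with more than 1 probe, ordered by the range between probes. Open circles are probes with siSelT-5 values only and filled circles probes with values on all 4 arrays; Srsf1 spans -1.71 to 0.70, and the probes of Prpf40b differ least.

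Probes with 4 values also differed within a gene. In 53 pairs of such probes from 15 genes, 56.6% had the same sign in the mean of 4 arrays as deposited. Their median gap was 0.35. The 1466 pairs of all genes gave 67.7% and 0.29. After centring the order turned, with the same sign in 64.2% of the 53 pairs and 59.8% of all pairs. Hnrnpa2b1, Hnrnph1 and Hnrnpk, with 5 probes each, gave the most pairs. The 2 probes of Hnrnpa3 gave opposite and repeatable values. One stood at 0.55 and 0.45 on the siSelT-1 arrays and at 0.51 and 0.53 on the siSelT-5 arrays, and the other at -0.40 and -0.86 with siSelT-1 and at -0.26 and -0.46 with siSelT-5. Each passed on its own in its direction, while their average was 0.0076. The 5 probes of Hnrnpa2b1, a core hnRNP protein, averaged -0.59 to 0.70 and those of Hnrnpk -0.0065 to 0.89. The 5 probes of Hnrnph1, which binds G-rich elements, averaged -0.59 to 0.42, and the 4 of Hnrnpul1 averaged -0.60 to 0.18. For Hnrnpa2b1 and Hnrnph1 each of the 5 probes was nevertheless lower with siSelT-1 than with siSelT-5. The 2 probes of Srsf2 split by construct: one had 0.46 and 0.74 on the siSelT-1 arrays, against -0.28 and 0.15 on the siSelT-5 arrays, the other 0.11 and -0.30 with siSelT-1 and 0.71 and 1.00 with siSelT-5. The 2 Hnrnpa1 probes were both near 0 with siSelT-1 (0.044 and 0.067 as means), and one of them had 1.40 and -1.06 on the siSelT-5 arrays. The probes of Hnrnpc averaged 0.20 and 0.74, those of Hnrnpd -0.23 and 0.25, those of Hnrnpr 0.040 and 0.14, and those of Srsf5 -0.065 and -0.058. The 3 probes of Hnrnpdl averaged -0.46 to -0.16 and those of Hnrnpll -0.33 to 0.18. As deposited, Snrpa and Hnrnpdl were the 2 genes with 3 or more probes whose means all had one sign.

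Splicing genes outside the 6 name groups were counted too. Of a list of 118, chosen with earlier results known, 77 had 4 values. In the mean of both constructs 34 rose and 2 fell (10 and 14 after centring). This stands beside the 45.7% and 8.04% of all genes given above (20.5% and 21.9% after centring). The highest were Pcbp2 (0.95) and Pcbp1 (0.72), which bind C-rich RNA, the SR-related gene Srrm1 (0.83) and U2af1 (0.62), the U2AF subunit at the 3′ splice site. Ewsr1, an RNA-binding protein of the FET family, fell: it had -1.41 and -1.52 on the siSelT-1 arrays, against 0.18 and -0.66 on the siSelT-5 arrays. Tra2a, an SR-like splicing activator, fell to -0.45. The helicase gene Dhx8 (-0.24) and Celf1 (-0.18) followed and did not pass as deposited. Both passed as lower after centring (limma, adjusted p 0.0259 and 0.00838). Celf1 also fell as deposited with siSelT-1 alone, at -0.47 (limma, adjusted p 0.046). With siSelT-1 alone 2 rose and 3 fell, with siSelT-5 alone 38 rose and 1 fell, and 0 passed for siSelT-1 minus siSelT-5, beside 10.3% and 3.37%, 47.6% and 6.29%, and 0.0631% of all genes. The list's median for both constructs was 0.24 and that of all genes 0.25.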

How the data were processed

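The deposited table holds 1 value per probe and array, with blanks, which the authors computed from 4 two-colour arrays as log ratios, here read as log2. The base, background correction, normalization and filter are not given in the sources used here, and the table gives no signal. Probe names came from the platform annotation, updated through Entrez identifiers to RefSeq names (GRCm38.p6), which matched 18041 of 18129 probes of a single name and changed 0 symbols. Members and lists were chosen with earlier results of these data known. A gene was the mean of its single-name probes with 4 values, giving 4754 genes.

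The fit used limma 3.58.1 (R 4.3.3) with 2 construct means, with contrasts for both constructs, each construct and siSelT-1 minus siSelT-5. P-values were two-sided and Benjamini-Hochberg adjusted over all genes, with a threshold of 0.05. Probes with siSelT-5 values only were fitted apart (5954 probes). Centring subtracted each array's median over 7038 shared probes; for the siSelT-5-only class it used the class median. Named genes were all those that passed, the 3 highest and lowest of each name group, every gene with several probes that had 4 values and, in the siSelT-5-only class, every probe that passed and the 6 highest and lowest; Snrpn, Sf3b1 and a few others were named for their role after their values were seen. The script was tested on simulated data. Alternatives were centring, scaling, a looser filter, probes one by one, added unnamed probes, eBayes with its robust option, weighted arrays, the replicate number as a block, a single mean and leaving out each array. There is no dye swap, sharing of vector RNA is not stated, and the number of arrays limits the precision.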

Additional observations from a re-analysis of the deposited data

Results flagged for a closer look

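Genes are listed here because both siSelT-1 arrays had one sign and both siSelT-5 arrays the other. Of the 48 splicing factor genes, 9 were below 0 with siSelT-1 and above 0 with siSelT-5 (18.8%), beside 9.51% of all 4754 genes, and 1 was the other way round, beside 3.07%. The difference siSelT-1 minus siSelT-5 was tested in limma and none passed. It was -1.10 for Hnrnpu, -0.72 for Hnrnph1, -0.72 for Hnrnpa2b1, -0.62 for Hnrnpr, -0.54 for Srsf6, -0.43 for Hnrnpf, -0.40 for Srsf5, -0.38 for Hnrnpm and -0.28 for Hnrnpd. Prpf40b, the gene in the other direction, had a difference of 0.30. The adjusted p lay between 0.0543 for Hnrnpu and 0.261 for Prpf40b. After centring, Hnrnpk, Hnrnpu and Srsf1 had this pattern (beside 6.73% of all genes), so Hnrnpu alone had it on both scales.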

How the results depend on the processing

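For both constructs together, the 21 genes that rose became 7 with arrays centred, 7 with arrays centred and scaled, 12 with a single mean over the 4 arrays, and 0 to 25 with each array left out. The 5 that fell became 14, 16, 2 and 0 to 8, and 8 where 1 array per construct sufficed. For siSelT-1, the counts of 2 higher and 2 lower became 1 and 4 (centred), 6 and 13 (scaled), 0 and 0 (1 array per construct), 10 and 7 (array weights) and 0 to 11 and 0 to 7 (arrays left out). For siSelT-5, 22 higher and 3 lower became 7 and 10 (centred), 7 and 8 (scaled) and 14 to 28 and 2 to 7 (arrays left out), and 5 were lower with 1 array per construct. For the difference, 2 genes were lower with array weights, and 0 to 5 were higher and 0 to 19 lower with arrays left out. In the siSelT-5-only class, centring gave 1 higher, 1 lower and a median of -0.048, and pairs of probes centred by class had a median of 0.34. With the replicate number as a replicate block, 0 higher (25) and 0 lower (10) passed for siSelT-1, and 21 higher (2157) and 6 lower (401) for both constructs. Arrays of the same number share only a number (correlation of deviations 0.0758 over 2 pairs). The counts over all 4754 genes moved with the processing too. For both constructs, 2172 higher and 382 lower became 976 and 1039 (centred), 1069 and 1159 (scaled) and 1412 and 203 (single mean). For siSelT-1, 490 and 160 became 182 and 241 (centred), 780 and 808 (scaled) and 1419 and 501 (array weights). For siSelT-5, 2264 and 299 became 915 and 949 (centred) and 707 and 753 (scaled). For the difference, array weights gave 42 higher and 237 lower. With 1 array per construct (6024 genes), 42 and 25 passed for siSelT-1, 503 were lower for both and 458 lower for siSelT-5. Centring left 22 of the 48 genes above 0 for both constructs, against 35 as deposited, beside 2288 and 3504 of all 4754 genes. Among values that passed as deposited or under the alternative, some signs turned with arrays centred. These were Hnrnpa3 (-0.26) and Hnrnpd (-0.26) in the mean of both constructs and Srsf6 (-0.022) with siSelT-5. With scaling such values turned for Hnrnpa2b1 (-0.27), Hnrnpa3 (-0.26), Hnrnpd (-0.28), Hnrnpf (-0.27), Hnrnpk (-0.022) and Srsf4 (-0.012) in both and Srsf2 (-0.013) and Srsf6 (-0.015) with siSelT-5. With single probes such values turned for Hnrnpa3 (0.50, siSelT-1) and Hnrnph1 (0.42, both). For Hnrnpa1, the difference was 0.50 and -1.05 and the siSelT-5 value -0.45 and 1.11 without siSelT-5 replicate 1 and without replicate 2, and signs turned without siSelT-5 replicate 2 for Sf3b6 (0.44 with siSelT-5). Why these values moved was not tested, except that centring subtracts the shift of each array.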

Other observations

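Probes with values on some arrays entered no comparison. Of the 9 with partial patterns, 8 had a value on siSelT-1 replicate 2 and none on siSelT-1 replicate 1. Those 8 values had a median of -0.50 and ranged from -0.69 to 0.19, with 12.5% above 0. Over all partial probes of a single name, the 1795 values on siSelT-1 replicate 2 had a median of -0.088, with 40.5% above 0. Prpf8 had a second probe with -0.67 on that siSelT-1 array and -1.33 and -1.06 on the siSelT-5 arrays, below the probe with 4 values. Another probe of Prpf3 had -0.038 on the siSelT-1 array and 0.57 and 0.57 on the siSelT-5 arrays, while both siSelT-5-only probes of the gene were below 0. Hnrnph2 had -0.50 with siSelT-1 and -1.18 and -1.24 with siSelT-5 on its second probe. All 9 probes with a value on 1 siSelT-5 array were below 0, from -2.13 for Prpf18, a factor of the second splicing step, to -0.13 for Prpf3. Over all such probes of a single name, 6.39% were above 0 on siSelT-5 replicate 1 and 9.28% on replicate 2.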
